A study of Bos taurus with 90 samples.

Results

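The miR-200 family was followed through 5 tissues of the dairy cow. Its 5 members, miR-200a, miR-200b, miR-429, miR-200c and miR-141, were chosen by name, and each had a value in all 90 samples, out of 388 miRNAs listed in any tissue and 289 listed in all 5. Small RNA had been sequenced from the epithelium of the rumen, the duodenum and the jejunum, and from liver and mammary gland, of 18 Chinese Holstein cows in mid-lactation, of which 6 received a diet based on alfalfa hay, 6 on corn stover and 6 on rice straw. The 5 tissues thus came from the same animals, and each tissue held 18 samples, 6 per diet. All cows were lactating and none was without one of the forages, so each diet is compared only with the other diets. RNA was taken from pieces of tissue holding many cell types, and samples are named here by diet and number.

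The miR-200 family is known as an epithelial family. Its members repress ZEB1 and ZEB2, transcription factors that switch off E-cadherin and other genes of epithelial cell contacts, and the ZEB factors in turn repress the genes of the family. The members come from a pair of clusters. In the RefSeq annotation of the cow, MIR200B, MIR200A and MIR429 follow each other with 0 annotated genes between neighbours, and MIR200C and MIR141 lie next to each other on another chromosome, also with 0 genes between them. The seed, the stretch at the 5′ end of a miRNA that pairs with its targets, divides the family differently: miR-200b, miR-200c and miR-429 share a seed, and miR-200a and miR-141 share another that is closely related to it. The alignment behind the files allowed mismatches and several mappings per read, so a read of such similar members may have been counted for more than its own, which leaves the split between them uncertain.

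Values are CPM, the count of a miRNA relative to all reads mapped to miRNAs in the same sample. The mapped reads of a sample, recovered from the steps of its CPM values, ranged from 937556 to 15621501. The fewest reads behind a member were 42, for miR-200b in liver of corn stover 6, or 10.9 CPM with an exact 95% binomial interval of 7.87 to 14.8 CPM, and intervals of this kind cover counting error only. In 8 libraries the whole miRNA profile correlated with the median profile of its tissue at r under 0.97, a limit set after the data had been seen. They were rice straw 1 to 5 and alfalfa hay 1 in mammary gland, alfalfa hay 1 in rumen and alfalfa hay 2 in liver. Of them, rice straw 1, rice straw 5 and alfalfa hay 1 of mammary gland were also the 3 libraries with fewer than 2000000 reads. The main results that rest on these libraries are given with and without them.

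Markers of cell types were compared with the labels. The hepatocyte miRNA miR-122 lay between 8671 and 12721 CPM in liver, was at most 48.5 CPM in mammary gland and was not listed in the other 3 tissues. The stratified epithelium list, of which miR-205 and miR-31 were listed in rumen, summed to between 25814 and 54759 CPM there and to at most 9101 CPM in any sample of another tissue. The intestinal and hepatocyte list (miR-192, miR-194 and miR-215) summed to at least 144396 CPM in duodenum and jejunum and 122056 CPM in liver. The list for smooth muscle and fibroblasts, led by miR-143, was high everywhere, with sums of 123618 to 252866 CPM in rumen, 110250 to 221655 CPM in duodenum and 153040 to 304820 CPM in jejunum, so the samples labelled as epithelium also held miRNAs known from the cells beneath it. The members of the family are read here as levels in such mixed tissue, in which fewer epithelial cells and less miRNA per cell cannot be told apart.

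miR-141, a member of the smaller cluster, was the most abundant of the family in every tissue. It ranked at place 8 of 328 miRNAs by mean CPM in mammary gland, 18 of 340 in rumen, 25 of 338 in duodenum, 26 of 337 in jejunum and 94 of 330 in liver. Its lowest, median and highest CPM over 18 samples were 3593, 29566 and 54985 in mammary gland, 6069, 9627 and 23533 in rumen, 3577, 6459 and 10176 in duodenum, 2566, 4565 and 7343 in jejunum, and 130, 218 and 1038 in liver. Every liver sample lay below every sample of the other tissues, and the other tissues overlapped.

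miR-200c, its neighbour in the genome, followed the same order of tissues. It had a median of 5336 CPM in mammary gland (1873 to 11616), 1687 CPM in rumen (1242 to 2537), 1010 CPM in duodenum (707 to 1601), 648 CPM in jejunum (509 to 922) and 18.5 CPM in liver (13.1 to 166). Mammary gland and rumen overlapped only through the lowest mammary samples, and the liver sample at 166 CPM was still below all jejunum samples.

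The members of the other cluster differed from this order. miR-200a had a median of 3885 CPM in mammary gland (860 to 15723) and 3714 CPM in rumen (2461 to 8327), ahead of 2134 CPM in duodenum (1320 to 3187), 1411 CPM in jejunum (722 to 2040) and 86.0 CPM in liver (53.7 to 334). miR-200b was the least abundant member in rumen, duodenum and jejunum, with medians of 976 CPM in mammary gland (147 to 1220), 519 CPM in duodenum (376 to 645), 445 CPM in rumen (395 to 639), 284 CPM in jejunum (189 to 428.9) and 19.8 CPM in liver (10.9 to 65.2). miR-429 was highest in rumen, with a median of 2557 CPM (1550 to 3627), against 1027 CPM in duodenum (794 to 1674), 928 CPM in jejunum (667 to 1759), 886 CPM in mammary gland (92.3 to 1435) and 52.7 CPM in liver (32.3 to 293). Rumen miR-429 overlapped with the duodenum and jejunum only at its lower end and lay above every mammary sample.

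**Figure D1:**
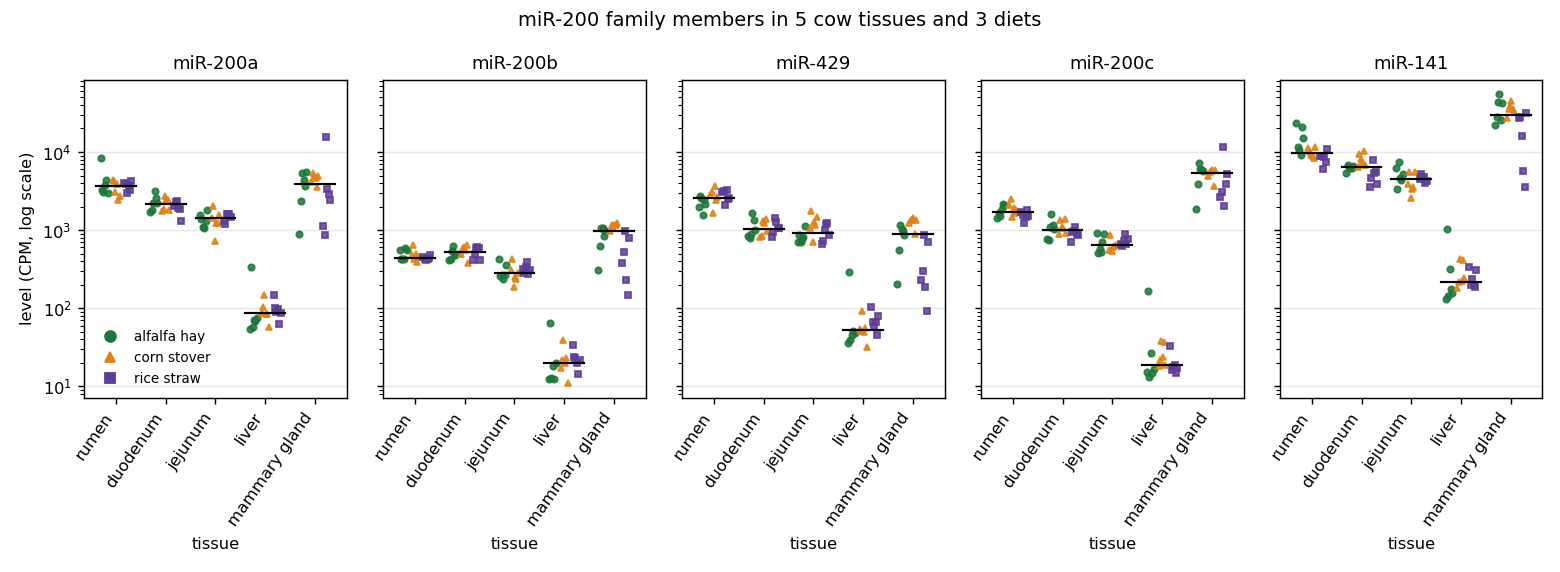
CPM of each member (log axis) in the 5 tissues, with a point per sample, colours and shapes for the diets and a black line at the median of 18. Liver sits lowest in each panel, mammary gland highest for miR-200c and miR-141 and rumen highest for miR-429. Rice straw samples of mammary gland spread over more than the other groups, except for miR-200c, where alfalfa hay samples of liver spread over more.

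Together the members took 4.11% ± 1.53 (SD, n = 18) of the mapped miRNA reads in mammary gland, 1.98% ± 0.548 in rumen, 1.13% ± 0.228 in duodenum, 0.802% ± 0.151 in jejunum and 0.0508% ± 0.0371 in liver. The make-up of that share varied by member. miR-141 gave a mean of 55.2% of the family in rumen, 57.1% in duodenum, 57.3% in jejunum and 55.8% in liver, and 71.2% in mammary gland. miR-429 gave 13.7% of the family in rumen and in liver, 12.7% in jejunum and 9.85% in duodenum, and 1.89% in mammary gland. miR-200b gave 2.47% in rumen and 1.94% in mammary gland, against 4.67% in duodenum, 3.78% in jejunum and 4.68% in liver. miR-200c gave 5.21% in liver against 9.24% in rumen, 9.18% in duodenum, 8.61% in jejunum and 13.5% in mammary gland, and miR-200a 11.52% in mammary gland against 17.6% to 20.6% in the other tissues. Since miRNAs enter a small RNA library with unequal efficiency, these shares compare tissues and not numbers of molecules.

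Tissues were compared with limma on log2(CPM + 1) over the 289 miRNAs listed in all 5, and 46 of the 50 member contrasts passed an adjusted p of 0.05. Most miRNAs differed between these tissues, so the share passing is given beside each contrast. All 5 members were lower in liver, an organ made up mainly of hepatocytes, than in each other tissue. For rumen minus liver the differences in log2(CPM + 1) were 5.33 for miR-200a, 4.45 for miR-200b, 5.37 for miR-429, 6.19 for miR-200c and 5.41 for miR-141, where 84.4% of all 289 miRNAs passed. The median over all miRNAs in that contrast was 0.47 as deposited and -0.21 after upper-quartile scaling, the widest such shift between tissues, and the members' differences were many times larger. For duodenum minus liver the members lay between 4.13 (miR-429) and 5.41 (miR-200c), and 82.7% of all miRNAs passed. For jejunum minus liver they lay between 3.78 (miR-200b) and 4.82 (miR-200c), and 84.8% passed. For liver minus mammary gland they lay between -7.59 (miR-200c) and -3.40 (miR-429), and 70.2% passed.

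Between mammary gland and the digestive tissues miR-429 differed from the other members in direction. miR-200c was lower in rumen than in mammary gland by a log2 difference of -1.41 ± 0.17 (SE, limma adjusted p = 1.44e-11) and miR-141 by -1.29 ± 0.18 (limma adjusted p = 1.55e-09), whereas miR-429 was higher in rumen by 1.97 and miR-200b lower by -0.59. miR-200a did not pass, at 0.12 ± 0.20 (limma adjusted p = 0.57). In that contrast 4 of 5 members and 84.8% of all miRNAs passed, with a median over all miRNAs of 0.34. For duodenum minus mammary gland, miR-200c was at -2.19 and miR-141 at -2.03, with miR-200a at -0.68, miR-200b at -0.46 and miR-429 at 0.74, and 5 of 5 members and 82.7% of all miRNAs passed. For jejunum minus mammary gland the values were -2.78 for miR-200c, -2.52 for miR-141, -1.30 for miR-200a, -1.26 for miR-200b and 0.59 for miR-429, with 5 of 5 members and 81.3% of all passing. The higher miR-429 in intestine than in mammary gland rested on the libraries that stood apart: without them the log2 difference was 0.21 for duodenum (limma adjusted p = 0.22) and 0.061 for jejunum (limma adjusted p = 0.74).

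Within the digestive tract, levels fell from rumen to jejunum. All 5 members were higher in rumen than in jejunum, by log2 differences of 0.67 (miR-200b) to 1.42 (miR-200a), and 75.8% of all miRNAs passed. Rumen exceeded duodenum by 1.24 ± 0.19 for miR-429 (limma adjusted p = 1.82e-08), 0.80 for miR-200a, 0.78 for miR-200c and 0.74 for miR-141, while miR-200b was at -0.13 (limma adjusted p = 0.46), with 72.7% of all miRNAs passing. With other scalings of the libraries miR-200b came out lower in rumen than in duodenum, at -0.31 after upper-quartile scaling (limma adjusted p = 0.0313). Duodenum and jejunum were the closest pair, with only 11.4% of all miRNAs passing. There miR-200b was higher in duodenum by 0.80 ± 0.16 (limma adjusted p = 3.18e-04), miR-200a by 0.62 ± 0.20 (0.0276) and miR-200c by 0.59 ± 0.17 (0.0146), so that 3 of 5 members passed, while miR-141 was at 0.49 (0.0734) and miR-429 at 0.15 (0.73). In the order of tissues, the neighbours that the test did not separate were rumen and mammary gland for miR-200a, duodenum and rumen for miR-200b, and duodenum and jejunum for miR-429 and miR-141. The miR-141 difference of 0.49 between duodenum and jejunum passed where fewer samples of other tissues set the spread, in the fit of these 2 tissues (limma adjusted p = 4.83e-04), without the libraries that stood apart (0.00117) and without the 3 shallowest libraries (0.0262), none of which is a duodenum or jejunum sample.

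The clusters were then set against each other within each sample, as the log2 of the sum of miR-200a, miR-200b and miR-429 over the sum of miR-200c and miR-141. This ratio does not depend on how a library is scaled. It averaged -2.68 ± 0.99 (SD, n = 18) in mammary gland, -0.98 ± 0.34 in duodenum, -0.97 ± 0.37 in jejunum, -0.87 ± 0.38 in rumen and -0.66 ± 0.39 in liver. Liver and the digestive tissues overlapped in it, with values from -1.95 to -0.17. In mammary gland 15 of the 18 samples lay at or below -2.35, under every sample of the other tissues, and the remaining 3 samples, rice straw 3, 4 and 5, were at -0.65 to -1.24. Without the 6 mammary libraries that stood apart, the mammary ratio was -2.74 ± 0.32 (n = 12). The sums are dominated by miR-200a and miR-141. When each member was given equal weight, as the difference of the mean log2 levels of the clusters, the ratio was -3.24 ± 0.51 in mammary gland, -1.39 ± 0.26 in rumen, -1.26 ± 0.24 in duodenum, -1.25 ± 0.26 in jejunum and -0.64 ± 0.37 in liver. Mammary gland was lowest by both measures, and liver, which overlapped with the digestive tissues in the ratio of sums, had the highest mean by both.

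Grouping by seed gave a smaller contrast between tissues. The log2 of miR-200b, miR-200c and miR-429 over miR-200a and miR-141 averaged -2.34 ± 0.64 in mammary gland, -1.71 ± 0.24 in liver, -1.70 ± 0.27 in duodenum, -1.60 ± 0.33 in jejunum and -1.59 ± 0.47 in rumen.

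**Figure D2:**
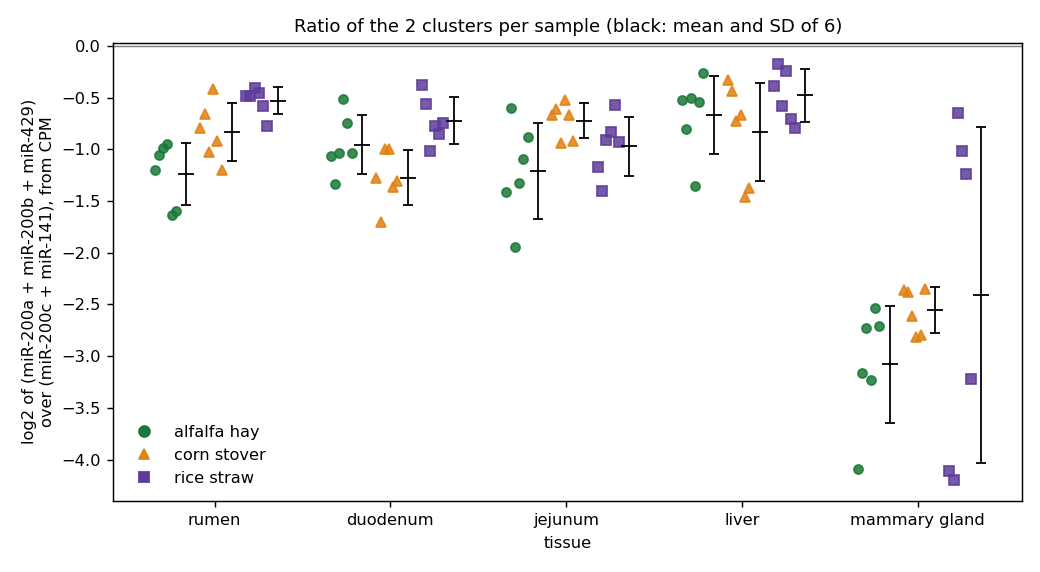
Log2 ratio of the summed CPM of miR-200a, miR-200b and miR-429 to that of miR-200c and miR-141 in each sample, by tissue and diet, with the mean and SD of each 6 in black. Mammary gland lies lowest apart from 3 rice straw samples, and in rumen the rice straw samples lie above the alfalfa hay samples.

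By diet the cluster ratio shifted within rumen. It ranged from -1.63 to -0.95 in alfalfa hay (mean -1.24), from -1.20 to -0.42 in corn stover (mean -0.84) and from -0.77 to -0.41 in rice straw (mean -0.53), so the alfalfa hay and rice straw samples did not overlap. In duodenum corn stover was lowest, from -1.71 to -0.996 against -1.02 to -0.38 in rice straw, and these groups overlapped slightly. In jejunum (means -1.21, -0.72 and -0.97 for alfalfa hay, corn stover and rice straw) and in liver (-0.67, -0.83 and -0.48) the diets overlapped.

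The diets were tested within each tissue on all listed miRNAs. In rumen, miR-141 was higher with alfalfa hay than with rice straw. Its lowest, median and highest CPM were 9255, 13380 and 23533 with alfalfa hay, 8367, 9536 and 11711 with corn stover and 6069, 8734 and 10852 with rice straw. The upper samples of alfalfa hay lay above all rice straw samples, and the lower ones overlapped with them. The difference in log2(CPM + 1) was 0.77 ± 0.21 (SE, limma adjusted p = 0.0485), in a contrast in which 2.65% of 340 miRNAs passed. Leaving out alfalfa hay 1, the rumen library that stood apart, gave 0.63 (limma adjusted p = 0.10), and the call was lost in 14 of 18 fits without a library, with differences of 0.63 to 0.79, and kept without rice straw 6 or alfalfa hay 2, 3 or 4. The other 4 members did not pass, with differences between -0.32 (miR-429) and 0.21 (miR-200c). No member passed in limma for alfalfa hay minus corn stover or corn stover minus rice straw, where 0% of miRNAs passed in rumen (56 and 12 of 340 at an unadjusted p under 0.05), or in the test of any diet difference (1.47% of miRNAs). For the 2 pairs edgeR called 3 and 0 miRNAs and DESeq2 8 and 0, and of the members miR-141 passed for alfalfa hay minus corn stover in DESeq2 alone (0.77, adjusted p = 0.0362). For any diet difference edgeR called 7 miRNAs and DESeq2 32, and miR-141 was among them in both (edgeR adjusted p = 0.0292, DESeq2 adjusted p = 8.67e-04).

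In duodenum and liver no member passed in any diet contrast, in limma, edgeR or DESeq2, against 0% of all miRNAs in limma in every diet contrast of both tissues. At an unadjusted p under 0.05 in limma there were 13, 37 and 45 of 338 miRNAs in duodenum for alfalfa hay minus corn stover, alfalfa hay minus rice straw and corn stover minus rice straw, and 16, 10 and 28 of 330 in liver. edgeR called 0 miRNAs in these contrasts, and DESeq2 0 in duodenum and at most 3 in liver. The lowest adjusted p there was that of miR-141 in duodenum, which ran from 6492 to 10176 CPM with corn stover and from 3577 to 7867 CPM with rice straw, a difference of 0.69 ± 0.16 (limma adjusted p = 0.0992). In jejunum the diets did separate many miRNAs, 22% for alfalfa hay minus corn stover, 28.8% for corn stover minus rice straw, 0% for alfalfa hay minus rice straw (18 of 337 at an unadjusted p under 0.05, and 1 called by edgeR and by DESeq2) and 23.7% for any difference, but 0 of 5 members passed in limma. Unadjusted p was under 0.05 for miR-429 alone, which ran from 700 to 1145 CPM with alfalfa hay and from 702 to 1759 CPM with corn stover, with a median of 784 against 1200 CPM. Its difference of -0.54 ± 0.20 had a limma adjusted p of 0.0531, and it passed after upper-quartile scaling at -0.59 (limma adjusted p = 0.0474) and in edgeR on recovered reads at -0.80 (adjusted p = 0.00826). edgeR also called miR-429 higher with corn stover than with rice straw, at 0.61 (adjusted p = 0.0346), where limma gave 0.37 (limma adjusted p = 0.16).

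**Figure D3:**
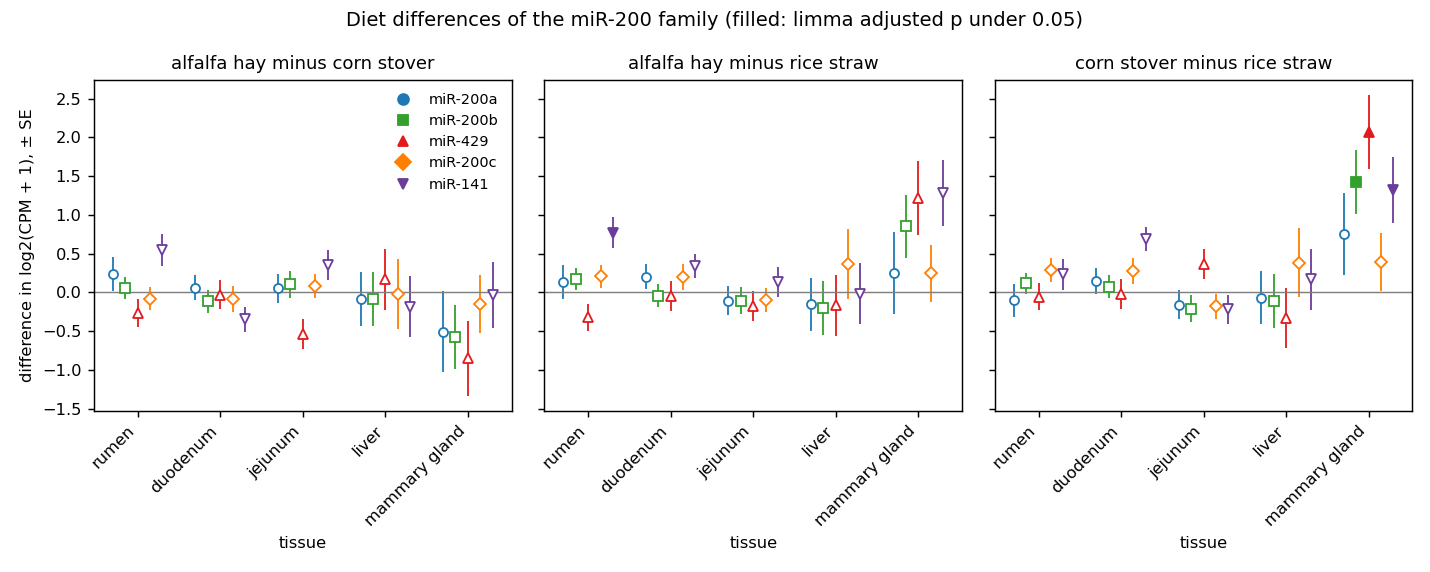
Difference in log2(CPM + 1) between diets for each member and tissue, with the SE of the limma fit as bars, and filled symbols where the adjusted p was under 0.05. The highest points are those of mammary gland against rice straw, and the filled symbols are miR-141 in rumen and miR-200b, miR-429 and miR-141 in mammary gland.

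In mammary gland miR-429, miR-200b and miR-141 were lower with rice straw than with corn stover as deposited, and all 5 members had a larger SD with rice straw than with corn stover. miR-429 had a lowest, median and highest CPM of 895, 1360 and 1435 with corn stover, 205, 919 and 1166 with alfalfa hay and 92.3, 263 and 875 with rice straw, so that all corn stover samples lay above all rice straw samples as deposited. After upper-quartile scaling these groups overlapped, at 652 to 1035 CPM with corn stover and 182 to 783 CPM with rice straw. miR-200b was at 972, 1150 and 1220 CPM with corn stover, 311, 910 and 1080 CPM with alfalfa hay and 147, 453 and 980 CPM with rice straw, with an overlap of corn stover and rice straw by the sample rice straw 3. miR-141 was at 27326, 35365 and 45174 CPM with corn stover, 22320, 35188 and 54985 CPM with alfalfa hay and 3593, 21700 and 31374 CPM with rice straw, and the groups overlapped. miR-200a and miR-200c had their highest mammary values, 15723 and 11616 CPM, in the sample rice straw 3, while the other rice straw samples ran from 860 to 3402 CPM and from 2046 to 5167 CPM.

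For corn stover minus rice straw, 3 of 5 members passed: miR-429 at 2.07 ± 0.48 (SE, limma adjusted p = 0.0118), miR-200b at 1.42 ± 0.41 (limma adjusted p = 0.0231) and miR-141 at 1.32 ± 0.43 (limma adjusted p = 0.0314). miR-200a was at 0.75 ± 0.53 and miR-200c at 0.39 ± 0.37. In this contrast 25% of 328 miRNAs passed, 77 higher and 5 lower with corn stover, and the median over all miRNAs was 0.63, so most miRNAs were higher with corn stover. With upper-quartile scaling, which divides each library by its 75th percentile, that median was -0.13 and the split of calls turned to 10 higher and 31 lower. miR-429 remained higher with corn stover at 1.15 (limma adjusted p = 0.0241), miR-200b was at 0.50 (0.27), miR-141 at 0.40 (0.60), miR-200a at -0.17 and miR-200c at -0.53, and these 4 did not pass. With trimmed mean of M values scaling miR-429 was at 1.33 (limma adjusted p = 0.0148) and the other 4 members did not pass. Without the 6 libraries that stood apart, which leaves 1 rice straw sample, no member passed and miR-429 was at 0.85 (limma adjusted p = 0.11). miR-429 was also the only member to pass the limma test of any diet difference (limma adjusted p = 0.0462, 3.66% of all miRNAs). For any diet difference edgeR called 20 of 328 miRNAs and 0 members, and DESeq2 called 62 miRNAs and 1 member. For alfalfa hay minus corn stover and alfalfa hay minus rice straw, 0% of miRNAs and 0 of 5 members passed, with 33 and 34 of 328 miRNAs at an unadjusted p under 0.05, 0 called by edgeR and 0 and 13 by DESeq2. miR-141 was at 1.29 and miR-429 at 1.22 for alfalfa hay minus rice straw.

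Marker lists were compared between corn stover and rice straw in mammary gland. Counts of their miRNAs called higher or lower are from deposited CPM, where 25% of all 328 miRNAs passed, 77 higher and 5 lower with corn stover. After upper-quartile scaling the split over all miRNAs was 10 higher and 31 lower, and the lists were not counted on scaled values. Mapped reads did not separate corn stover (4421565 to 5755198) from rice straw (1527304 to 8364602). The upper quartile of the libraries, in CPM, ran from 652 to 773 with corn stover, above every other mammary library. It ran from 203 to 637 with rice straw and from 172.5 to 596 with alfalfa hay, and was 251 or less in rice straw 1, rice straw 5 and alfalfa hay 1. The smooth muscle and fibroblast list, with 6 of 6 miRNAs listed, summed to 73918 to 132727 CPM with corn stover and 134574 to 233123 CPM with rice straw, without overlap, with 1 of its miRNAs higher and 1 lower with corn stover. The leukocyte list (5 of 5) summed to 3590 to 9370 CPM and 573 to 8666 CPM, and 3 of its miRNAs were higher with corn stover. The endothelium list (2 of 2) summed to 29614 to 44086 CPM and 10201 to 43585 CPM with 1 higher, and the red blood cell list (3 of 3) to 1070 to 2938 CPM and 1202 to 3985 CPM with 2 higher. The glandular and secretory list (4 of 4) summed to 4801 to 6866 CPM and 4373 to 11486 CPM with 1 higher, and the stratified epithelium list (2 of 3) to 2107 to 6661 CPM and 879 to 9101 CPM with 0 higher or lower. The striated muscle list (3 of 4) summed to 108 to 243 CPM and 22.3 to 599.9 CPM with 1 higher, and the intestinal list (3 of 3) to 2683 to 3714 CPM and 1905 to 2939 CPM with 2 higher. Hepatocyte miR-122 was at 0 in at least 1 rice straw sample and at most 48.5 CPM. The part of these differences in the values of the family was not tested.

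Sample by sample, the mammary libraries that stood apart all lay below the median of the other 12 in miR-200b, miR-429 and miR-141. They differed in which members were furthest from it, and rice straw 3 alone was above it in miR-200a and miR-200c. Against the median of the other 12 libraries, alfalfa hay 1 was low in all 5 members, by a log2 of -2.32 for miR-200a, -1.78 for miR-200b, -2.42 for miR-429, -1.60 for miR-200c and -0.66 for miR-141. Rice straw 1 and 2 were likewise low in all 5 members, least so in miR-141 (-0.37 and -0.35). The lowest member was miR-429 in rice straw 1 (-2.27), as in alfalfa hay 1, and miR-200a in rice straw 2 (-2.39). After upper-quartile scaling, alfalfa hay 1 and rice straw 1 had 2581 and 2754 CPM of miR-200a, within the range of corn stover (2579 to 3695), and the 2 highest mammary values of miR-141, 63928 and 66939 CPM. Rice straw 2 kept a low miR-200a of 964 CPM.

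In rice straw 3, 4 and 5, miR-141 was further below the median of the 12 libraries, and miR-200a was less so or above it. In rice straw 3, miR-200a and miR-200c were above the 12 libraries by 1.802 and 1.03 and miR-141 below them by -1.15, while miR-200b (-0.13) and miR-429 (-0.32) were close to them. In rice straw 4 and 5, miR-141 was lower by -2.64 and -3.30, miR-429 by -2.54 and -3.57 and miR-200b by -2.23 and -2.86, whereas miR-200a was at -0.41 and -0.63 and miR-200c at -1.48 and -0.57. Both libraries were thus below the median of the 12 in all 5 members. Their miR-200a, at 3402 and 2921 CPM, was still within the range of the 12 (2347 to 5536 CPM). So was miR-200c of rice straw 5, at 3845 CPM (3726 to 7151 CPM). The low values of miR-141, miR-429 and miR-200b stayed after upper-quartile scaling, at 6142 and 7084 CPM of miR-141 against 17474 to 31589 CPM with corn stover, 203 and 182 CPM of miR-429 against 652 to 1035 CPM, and 246 and 290 CPM of miR-200b against 622 to 924 CPM. miR-200a and miR-141, which share a seed, were nearly equal in rice straw 3, at 15723 and 15949 CPM, whereas the log2 ratio of miR-200a to miR-141 was -2.72 or lower in each of the 12 libraries that did not stand apart.

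**Figure D4:**
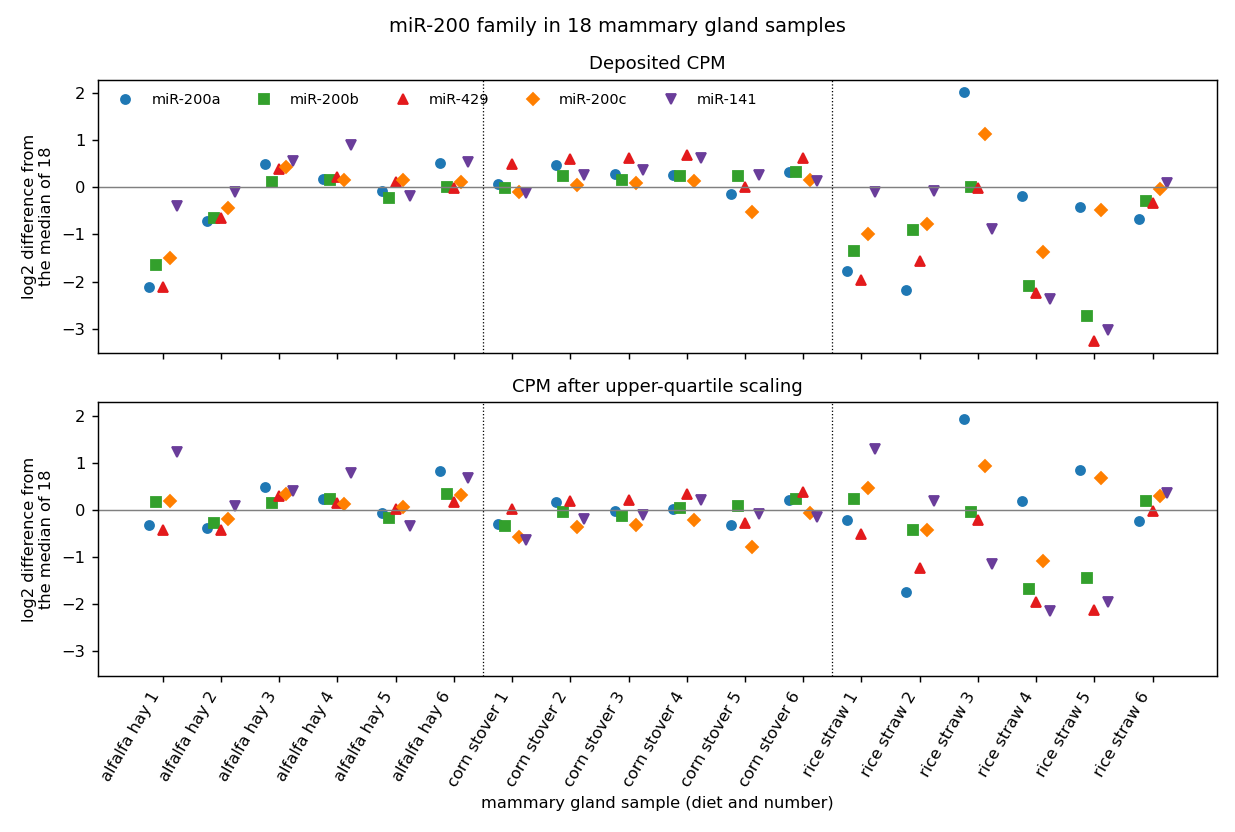
Log2 difference of each member from its median over the 18 mammary gland samples, from deposited CPM (top) and after upper-quartile scaling (bottom). Corn stover samples stay within 1 unit of 0 in both, alfalfa hay 1 and rice straw 1 come closer to 0 for all members but miR-141 after scaling, rice straw 3 has members on both sides of 0 in both, and rice straw 4 and 5 lie below 0 for all members before scaling.

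The spread over the 18 mammary samples, as the SD of log2(CPM + 1), was 1.21 for miR-429, 1.03 for miR-200a, 1.01 for miR-141, 0.91 for miR-200b and 0.65 for miR-200c, with a median of 0.85 over the 246 miRNAs of at least 10 CPM on average. Upper-quartile scaling lowered it to 0.74 for miR-429, 0.73 for miR-200a, 0.55 for miR-200b and 0.52 for miR-200c, and left 0.93 for miR-141, with a median of 0.64 over all such miRNAs. With that scaling 37 of 236 miRNAs had a larger SD than miR-141 and 169 a larger SD than miR-200c. Without the 6 libraries that stood apart, the scaled SDs were 0.22 for miR-200b, 0.24 for miR-429, 0.36 for miR-200a and miR-200c and 0.42 for miR-141, around a median of 0.37. In rumen, by comparison, the deposited SDs ran from 0.20 (miR-200b) to 0.48 (miR-141), in duodenum from 0.24 to 0.40 and in jejunum from 0.28 to 0.42. In liver they ran from 0.61 (miR-200b) to 0.83 (miR-200c), around a median of 0.35 over all such miRNAs, and from 0.42 to 0.51 without alfalfa hay 2, so miR-200c spread more in liver than in mammary gland over all 18 samples.

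The ratio of a pair of members in a sample shows how closely they stayed together, free of scaling. In mammary gland the tightest pair was miR-200b and miR-429, both of the first cluster, with an SD of the log2 ratio of 0.38 over 18 samples, and the loosest was miR-200a and miR-141 with 1.37. Membership of a cluster did not order the pairs there, since miR-200a with miR-200b (0.93), miR-200a with miR-429 (0.99) and miR-200c with miR-141 (0.97) were looser than miR-200b with miR-141 (0.55) or miR-200a with miR-200c (0.61), which share neither cluster nor seed. Without the 6 libraries all 10 pairs had SDs between 0.24 and 0.45. In liver the pairs within the first cluster were tight, with 0.18 for miR-200a with miR-200b, 0.21 for miR-200a with miR-429 and 0.28 for miR-200b with miR-429. In jejunum miR-200b with miR-200c, which share a seed, were the tightest at 0.18, nearly equal to miR-200a with miR-200b of the first cluster at 0.19.

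**Figure D5:**
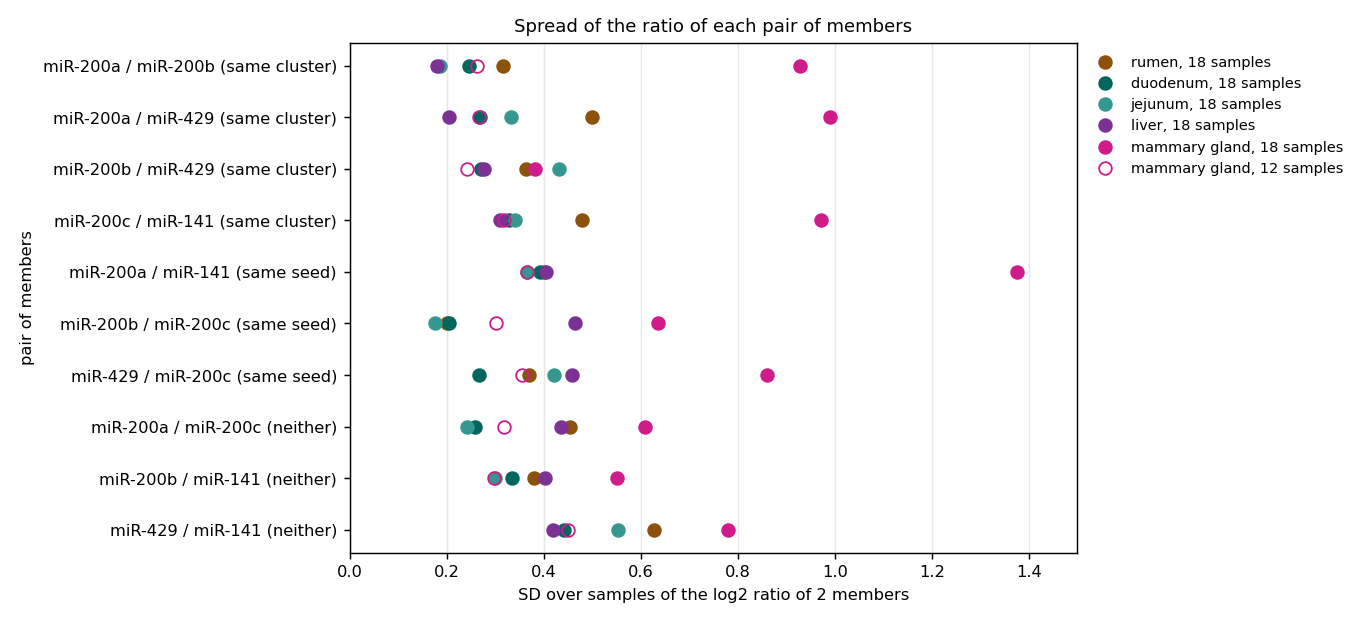
SD over samples of the log2 ratio of each pair of members, by tissue, with open circles for the 12 mammary gland samples that did not stand apart. Mammary gland with 18 samples lies to the right for all pairs but miR-200b with miR-429, and its open circles lie between 0.24 and 0.45.

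In liver the sample alfalfa hay 2 had the highest value of every member. It had 334 CPM of miR-200a against 53.7 to 150 CPM in the other 17 liver samples, 65.2 CPM of miR-200b against 10.9 to 38.6, 293 CPM of miR-429 against 32.3 to 102, 166 CPM of miR-200c against 13.1 to 37.9 and 1038 CPM of miR-141 against 130 to 421. The same library had 1525 CPM of miR-205, against at most 13 CPM in the others, and 475 CPM of miR-375 against at most 165 CPM. It was also above all others in miR-451 of red blood cells (2471 CPM against at most 1707) and miR-142-5p of leukocytes (9457 CPM against at most 7074), while its miR-122 of 11014 CPM was near the median of the others, 11063 CPM. Its miR-143, at 146039 CPM, lay within the others (81811 to 177119 CPM). The whole red blood cell list did not follow miR-451, since its highest liver sum was with corn stover (6661 CPM), against at most 6580 CPM with alfalfa hay. From the list that holds miR-375, miR-182 was at 367 CPM against at most 342 CPM in the others, and miR-183 at 34.0 CPM against at most 21.0 CPM. Listed markers beyond these are not given for this library. miR-205 is a miRNA of stratified epithelium and miR-375 of secretory cells, and the part of all these cell types in the family values of this library was not tested. Without it the liver means were 87.1 ± 27.8 CPM (SD, n = 17) for miR-200a, 20.2 ± 7.38 for miR-200b, 57.2 ± 18.9 for miR-429, 21.3 ± 7.81 for miR-200c and 241 ± 89.6 for miR-141, so a low level of the family was present in every liver sample.

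A test of whether diet differences varied between tissues passed for miR-429 (limma adjusted p = 9.58e-04), miR-200b (0.0147) and miR-141 (0.0397), and did not pass for miR-200a (0.73) and miR-200c (0.97), with 45.7% of all 289 miRNAs passing. After upper-quartile scaling miR-429 alone passed (limma adjusted p = 0.0134), and without the libraries that stood apart miR-141 alone (0.0129), with miR-429 at 0.17 and miR-200b at 0.26. That fit has 1 rice straw sample of mammary gland left, which is assumed to vary like the other groups.

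Among 257 other miRNAs listed in all tissues with at least 10 CPM on average in at least 1, those whose pattern over the 15 tissue and diet means was most like the mean of the family were miR-183 (r = 0.93), miR-362-5p (0.93), miR-10b (0.93), miR-182 (0.92) and miR-96 (0.89). These are descriptions over means that share animals and libraries, and no test was made of them. miR-183, miR-182 and miR-96 form a cluster of their own that is known from sensory epithelia. Their medians were 248.5, 3027 and 98.6 CPM in mammary gland, 343, 2622 and 19.0 CPM in rumen, and 11.9, 161 and 0.938 CPM in liver. The mean of miR-183 in mammary gland, 526.4 CPM, was above its mean of 461 CPM in rumen through 3 libraries that stood apart, and was 248 CPM without the 6. miR-10b, from a HOX cluster, was far more abundant, with medians of 74430 CPM in mammary gland, 29106 CPM in rumen and 817 CPM in liver, and miR-362-5p was rare, at 22.6, 21.1 and 5.38 CPM in the same tissues. Of these 5, each was less like miR-429 (r = 0.65 to 0.87) than like any other member.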

How the data were processed

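Per the labels and the study's methods, total RNA was sequenced as small RNA libraries on an Illumina instrument, base calls were made with CASAVA 1.8, and the authors ran sRNAbench against the cow precursors of miRBase 22 with a seed of 20, 2 mismatches and at most 10 mappings, keeping reads of over 15 nt. The genome build is not given in the sources used here. The deposited values are CPM, relative to all reads mapped to miRNAs in a sample, without length or library composition correction. The study calls the processed data raw read counts, whereas most of the values are not whole numbers, and they were taken as CPM. In all 90 files they were whole multiples of a step within 0.1 read, so reads per sample (937556 to 15621501) were recovered for the alternatives.

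Groups came from the diet and tissue labels. Main tests used limma 3.58.1 in R 4.3.3 (lmFit, eBayes with trend) on log2(CPM + 1), Benjamini-Hochberg adjustment over all miRNAs tested and a threshold of 0.05. Tissues and the tissue by diet interaction were fitted on 289 miRNAs in 90 samples with 15 group means, diets within each tissue on its own list. Within a tissue, the adjusted p-values of the diet tests rest on the spread between cows. The main tissue and interaction fits took the 90 samples as independent, although the 5 tissues share their cows. Their estimate of the spread was pooled over the tissues. Ratios of clusters or pairs were described without a test. Alternatives were pseudocounts of 0.1 and 5 CPM, upper-quartile and trimmed mean of M values scaling, a mean of at least 10 CPM, edgeR 4.0.16 and DESeq2 1.42.0 on recovered reads, a replicate block, fits of 2 tissues and the leaving out of libraries. Scripts were tested on simulated data. Tables were handled with pandas 2.3.3 in Python 3.11.15.

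Named miRNAs are the 5 members, the 5 most like their mean, and lists of cell type markers (stratified, glandular and secretory, and intestinal epithelium, hepatocyte, smooth muscle and fibroblast, striated muscle, endothelium, red blood cell, leukocyte). Members and lists were chosen with earlier results of these data known. RefSeq symbols matched 5 of 5 members, and were used only for which genes neighbour each other.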

Additional observations from a re-analysis of the deposited data

Results flagged for a closer look

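In 90 groups of 6 samples (the 5 members and the cluster ratio, in each tissue and diet), 7 had a highest or lowest sample whose gap to its neighbour, as a share of the range, exceeded Dixon's limit of 0.625, where chance gives about 1 in 20 groups, or 4.5. For the members, gap and range were taken on log2(CPM + 1), while the levels beside them are printed in CPM. In liver, alfalfa hay 2 was the highest of its group for miR-200a (0.818 of the range), miR-200b (0.721), miR-429 (0.834) and miR-200c (0.730), so 4 of the 7 come from that library. miR-200c of liver, rice straw 1, was at 32.4 CPM against 15.03 to 19.0 CPM in the other 5 (0.699). miR-429 of mammary gland, corn stover 5, was at 895 CPM against 1245 to 1435 CPM (0.699). miR-200c of jejunum, corn stover 2, was at 864 CPM against 535 to 640 CPM (0.628).

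Diet differences varied between tissues by the interaction test for miR-429 (limma adjusted p = 9.58e-04), miR-200b (0.0147) and miR-141 (0.0397). The same test passed for 45.7% of all 289 miRNAs, and after upper-quartile scaling miR-429 was the only member to pass. In mammary gland as deposited, corn stover minus rice straw was 2.07, 1.42 and 1.32 for miR-429, miR-200b and miR-141, where the median over all miRNAs was 0.63. The same differences were -0.054, 0.11 and 0.23 in rumen, -0.020, 0.072 and 0.69 in duodenum, 0.37, -0.21 and -0.22 in jejunum and -0.34, -0.11 and 0.17 in liver.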

How the results depend on the processing

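Of 550 recomputed tissue contrasts of single members, 534 kept direction and side of the threshold. miR-200a in rumen minus mammary gland changed sign in 6, never passing: -0.19 (upper-quartile), -0.098 (trimmed mean of M values), -0.092 (without samples under 2000000 reads), -0.021 (without the libraries that stood apart, chosen after seeing the data), -0.21 (edgeR) and -0.31 (DESeq2). The count of 46 member calls ranged from 45 to 47. For corn stover minus rice straw in mammary gland, miR-200a changed sign with upper-quartile scaling (-0.17), edgeR (-0.37) and DESeq2 (-0.45), and miR-200c with upper-quartile scaling (-0.53), trimmed mean of M values (-0.36), edgeR (-0.45) and DESeq2 (-0.52). The 3 member calls there became 1 under both scalings, edgeR and DESeq2, each time miR-429, and 0 without the libraries that stood apart. Calls over all miRNAs went from 82 to 41 (upper-quartile), 36 (trimmed mean of M values) and 50 (edgeR), and were 83 with DESeq2. Leaving out each sample gave 1 to 4 member calls in mammary gland, 0 to 1 in rumen, 0 to 1 in duodenum, 0 to 2 in jejunum and 0 to 0 in liver. miR-429 passed in 18 of 18 such mammary fits (1.73 to 2.38). miR-200b was lost without rice straw 5 (1.12, limma adjusted p = 0.0633), and miR-141 without rice straw 4 (1.06, 0.0680), rice straw 5 (0.93, 0.0811) or corn stover 2, 3, 4 or 6 (1.25 to 1.35). miR-200a passed without rice straw 3 (1.26, 0.0289). In duodenum miR-141 passed without that tissue's rice straw 3 (0.82, 0.00252), and in jejunum miR-429 without rice straw 1, alfalfa hay 6 or corn stover 3 (-0.69, 0.00773). All calls in mammary gland went to 18 without rice straw 5, 42 without rice straw 1 and 40, 40, 32 and 41 without corn stover 1, 3, 4 and 6. In rumen the 1 member call became 2 with DESeq2 and 0 without alfalfa hay 1, and the 9 calls over all miRNAs became 21 (upper-quartile), 14 (mean of at least 10 CPM), 17 (edgeR) and 33 (DESeq2), 0 without alfalfa hay 1, 5 or 6 or rice straw 4, 43 without alfalfa hay 2 and 32 without alfalfa hay 3. In jejunum 1 member passed with either scaling or the 10 CPM filter, and 2 with edgeR or DESeq2. Interaction calls went from 3 to 1 with either scaling, edgeR, DESeq2, without samples under 2000000 reads and without the libraries that stood apart. The cause of these changes was not tested.

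Same-numbered samples of different tissues correlated in their deviations at r over 0.1 in 83 of 180 pairs (-0.42 to 0.58), and not in every pair, so the numbers were not taken to pair samples. As a hint from the data, not the design, a sample correlated best with its own number in 101 of 360 comparisons between tissues, where 60 would come by chance, and in 34 of 180 between diets, where 30 would. With diet and number together as a block, 46 tissue and 3 interaction calls were left. Within a tissue the block was the number alone, which joins different cows on different diets and is not a pairing of the design. It gave 3 member calls in mammary gland, 1 in rumen, 1 in duodenum (miR-141), 1 in jejunum (miR-429) and 0 in liver, and 16 calls over all miRNAs in rumen.

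The cluster ratio, as a difference of mean log2 levels, was -3.24 in mammary gland, -0.64 in liver, -1.39 in rumen, -1.26 in duodenum and -1.25 in jejunum, and by seed -1.59 in rumen, -1.70 in duodenum, -1.60 in jejunum and -1.71 in liver. The mammary SD of miR-200b was 0.55 with upper-quartile and 0.54 with trimmed mean of M values scaling, that of miR-429 0.74 and 0.78, and that of miR-200c 0.41 with the latter. Without the libraries that stood apart it was 0.42 (miR-200a), 0.28 (miR-200b), 0.43 (miR-429), 0.26 (miR-200c) and 0.33 (miR-141). Depth limits mainly the liver values and the 3 shallow mammary libraries.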
